A study of Mus musculus with 6 samples.

Results

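The genes of melanosome transport described here are Mlph, Rab27a, Myo5a, Rab38, Rab32 and Rab7, taken as a list of names with no threshold on their H3K27ac. Their regulatory elements were taken as all H3K27ac peaks that lay over a gene or within 20 kb of either end in GENCODE's annotation of mm10. Once overlapping peaks of the 4 libraries were joined, 153 of the 182956 regions of the series belonged to the 6 genes. Of these, 11 lay within 1 kb of a transcription start site (TSS) of the gene itself and are called promoter regions. Another 14 lay within 1 kb of the TSS of a neighbouring gene, and 128 were non-promoter regions.

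H3K27ac, the acetylation of lysine 27 of histone H3 found at active promoters and enhancers, was profiled by chromatin immunoprecipitation and sequencing (ChIP-seq) in B16 F10 cells. This is a mouse melanoma line, taken here at day 5 of a progressive pigmentation model seeded at 100 cells/cm2, in which untreated cells gain pigment with time. Low pigment (LP) and high pigment (HP) cells were separated from the same culture by side scatter, and each population had 2 replicates. No genotype or drug differs between the groups, and the cells, labelled melanocytes, are a tumour line.

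Melanin is made in melanosomes, organelles related to lysosomes. Microtubule motors carry ripe melanosomes outwards, and at the cell edge the GTPase Rab27a on the melanosome binds melanophilin (Mlph), which in turn binds the actin motor myosin Va (Myo5a). Loss of any of these 3 proteins leaves melanosomes clustered around the nucleus and dilutes coat colour in mice. Rab32 and Rab38 act earlier and bring tyrosinase and Tyrp1 to the immature melanosome, while Rab7 serves late endosomes and lysosomes in all cells.

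The 4 libraries held 11467942 to 15353176 fragments, and each value is the pileup at the summit, the highest number of fragments over a base, per 1000000 fragments of the library (scaled pileup). 1 fragment is worth 0.0651 to 0.0872 on this scale, and the lowest pileup among called peaks was 5 or 6 fragments. Across the 12084 regions called in all 4 libraries, the median log2 ratio of HP over LP was 0.92, with 0.57 in replicate 1 and 1.30 in replicate 2, so most regions stood higher in HP. Differences are therefore given also after centring each library on its own median. Promoter regions were called in all 4 libraries for 8 of the 9 melanocyte marker genes checked and for 0 of the 15 markers of keratinocytes, fibroblasts, endothelial and immune cells. Of those 15, 7 had a promoter region in 1 to 3 libraries, among them the fibroblast genes Col1a1 and Pdgfra in 3, and 8, with all 4 immune markers, had none. By library 2 and 4 of the 15 were called in LP against 3 and 3 in HP.

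Mlph was the member with a called difference. Its promoter region, chr1:90914227-90919330 (plus strand), was 5104 bp long and ran from upstream of the TSS into intron 1. The scaled pileup was 1.22 and 0.977 in LP (replicates 1 and 2, in this order throughout) against 2.70 and 6.17 in HP, from 14, 15, 31 and 88 fragments. Both HP libraries were above both LP libraries, but the HP replicates lay farther apart than the groups' nearest values. The means were 1.10 ± 0.172 (SD, n = 2) in LP and 4.44 ± 2.46 (SD, n = 2) in HP. On the log2 scale the region rose by 1.90 (SE 0.54), or 3.74-fold, with a limma adjusted p of 0.0405 over all regions. It was the 1 called region of the 10 member regions found in all 4 libraries, where 4.01% of all such regions were called higher in HP and 0% lower. At an unadjusted limma p under 0.05, 7 of the 10 were higher, against 36.2% of all regions, and 0 were lower.

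With the replicate number as a block, the limma adjusted p of the Mlph region was 0.0539, and after centring the difference was 0.89 with a limma adjusted p of 1.00. The call was also lost when LP replicate 1, LP replicate 2 or HP replicate 2 was left out (limma adjusted p = 0.425, 0.331 and 0.233). An exact permutation test of 2 against 2 libraries cannot go below p = 0.333.

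The summits showed which piece of the Mlph region carried the value. HP replicate 2 had a single peak over the whole region with its summit 2753 bp into the gene, while HP replicate 1 had 1 peak at 120 bp and another at 2787 bp, of 2.70 and 2.61. LP replicate 1 had 5 small peaks, the highest at -14 bp, and LP replicate 2 had 3, the highest at 1150 bp, so the 4 fitted values came from different positions. All 4 libraries had a summit between 2699 and 2787 bp, within 88 bp of each other, and there the scaled pileup was 0.959 and 0.912 in LP against 2.61 and 6.17 in HP. This intron 1 element, picked out after its values were seen and not tested, differed by 2.10 on the log2 scale, with 1.45 in replicate 1 and 2.76 in replicate 2. Near the TSS, HP replicate 2 had no summit of its own, so the promoter proper has values from 3 libraries only.

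RefSeq's GRCm38.p6 (mm10) sequence just before the TSS and around the intron 1 summits is shown because the fitted values of LP replicate 1 and HP replicate 2 have their summits there, while those of LP replicate 2 and HP replicate 1 lie outside both runs. The first run, chr1:90914850-90915084 on the plus strand, ends just before the GENCODE TSS, and its capitals mark the letters TCACGTG read on the other strand, the extended E-box that Mitf and its relatives are known to bind. They begin 48 bp before RefSeq's own TSS. The second run, chr1:90917738-90917937, is the 200 bp around the intron 1 summit and holds none of the letters searched.
Mlph promoter: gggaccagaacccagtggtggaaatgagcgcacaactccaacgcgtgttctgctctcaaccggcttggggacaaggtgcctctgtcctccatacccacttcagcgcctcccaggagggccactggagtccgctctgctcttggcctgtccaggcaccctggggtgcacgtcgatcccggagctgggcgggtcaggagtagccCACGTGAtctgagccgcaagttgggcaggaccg
Mlph intron 1 summit: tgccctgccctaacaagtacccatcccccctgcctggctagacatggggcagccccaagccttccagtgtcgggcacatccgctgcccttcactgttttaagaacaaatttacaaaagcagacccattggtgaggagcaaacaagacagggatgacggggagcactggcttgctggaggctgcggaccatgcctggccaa

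The letters searched on both strands were the E-boxes CACGTG and CATGTG, their longer forms TCACGTG and TCATGTG, the Sox letters ACAAAG, the AP-1 letters TGACTCA and the Lef1 letters CTTTGAT. The longer E-boxes contain the shorter, so a match to TCACGTG is also a match to CACGTG. In RefSeq's 32851 promoter windows, each from 250 bases before to 50 after a TSS, 3.77% held TCACGTG and 7.15% held CACGTG. Mlph, Rab27a, Myo5a, Rab32 and Rab7 had windows in that table, 7 in all. E-box letters were found only in the Mlph window and in a Rab27a window that lies within an intron. The windows of Rab7, Myo5a and Rab32 and the other Rab27a window held none of the letters searched. Around the summits of the 10 member regions called in all 4 libraries, CACGTG and CATGTG were found in 0. Over all regions called in all 4 libraries these letters were also uncommon. Within 1 kb of a TSS, 3.76% held CACGTG and 3.59% CATGTG, and farther away 4.76% and 11.7%.

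**Figure D1:**
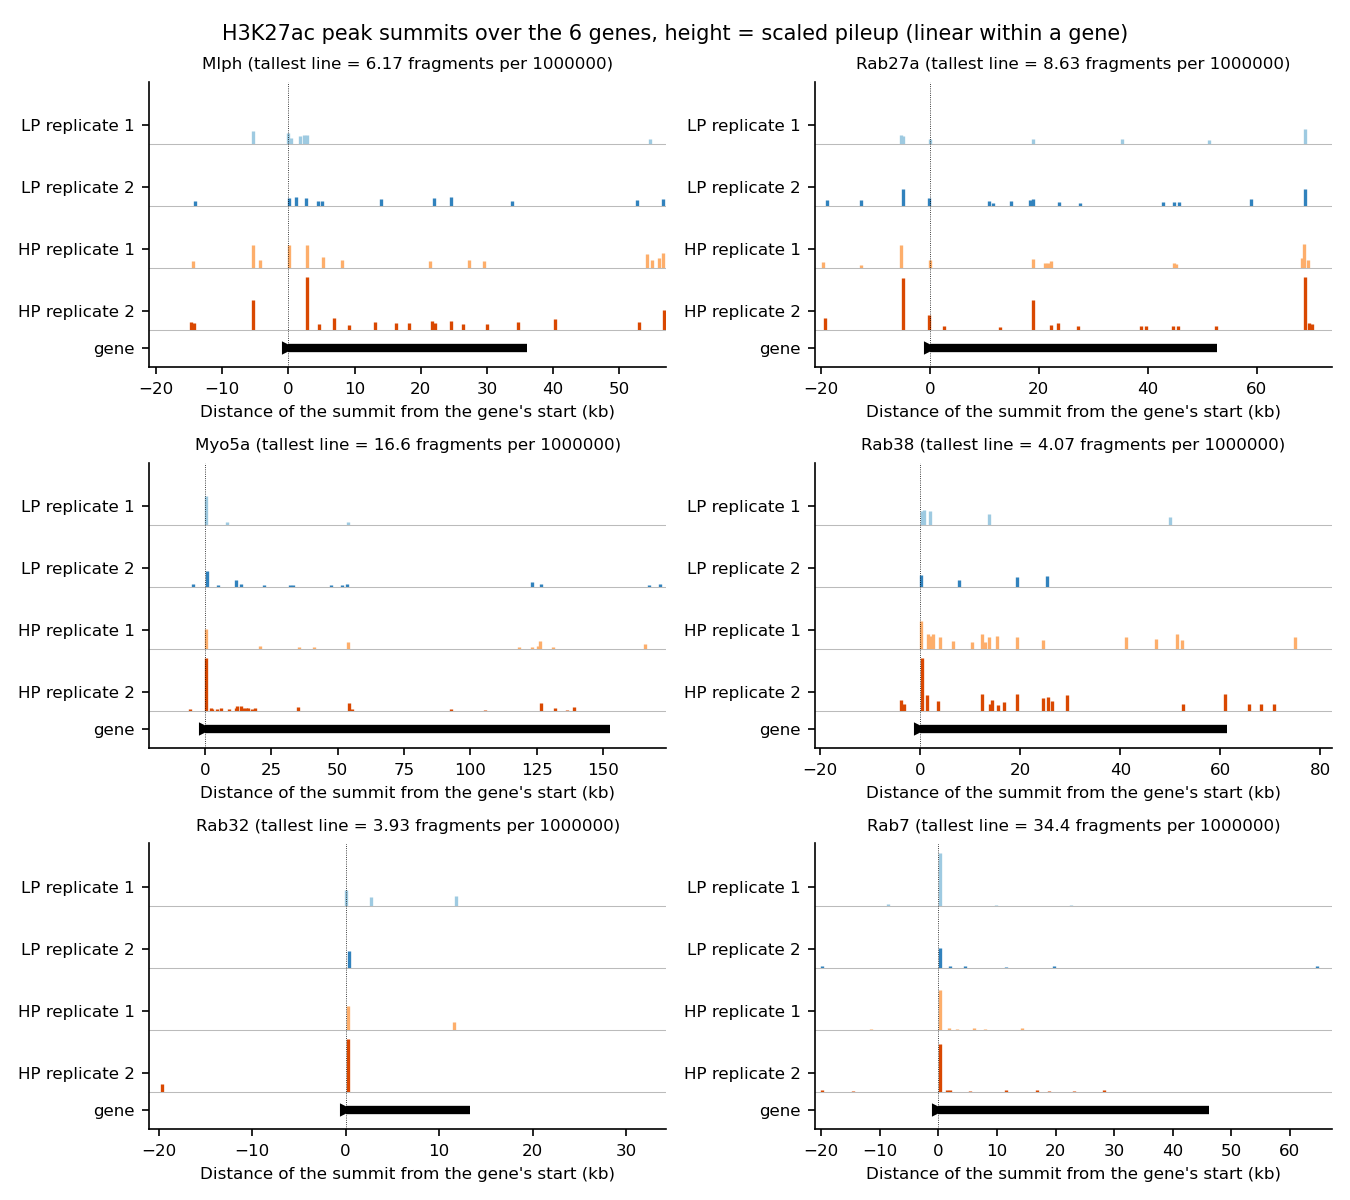
Peak summits over each gene and 20 kb on either side, by distance from the gene's start in kb (horizontal) in the 4 libraries (lanes); line height is the scaled pileup, linear and set to the tallest line of each gene, and the black bar is the gene. HP replicate 2 has its tallest Mlph line in intron 1, and Rab7 and Myo5a have 1 tall line at the TSS in every library.

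Rab27a, the GTPase that anchors the complex on the melanosome, had the lowest promoter of the 6 by its mean over the libraries, though not in LP replicate 2, where Mlph and Rab38 were lower. The promoter region, chr9:73044433-73045070, stood at a scaled pileup of 0.698 and 1.17 in LP against 1.22 and 2.39 in HP. The groups did not overlap, yet LP replicate 2 and HP replicate 1 differed by little. The log2 difference was 0.91 (SE 0.54, limma adjusted p = 0.181), and it lay at -0.10 after centring, close to the median region of these libraries.

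An element in intron 2 of Rab27a, chr9:73062714-73065478, showed a wider gap. It had 0.698 and 1.04 in LP against 1.48 and 4.84 in HP, so HP replicate 2 stood well above the other 3 libraries. The difference was 1.65 (SE 0.54) on the log2 scale and 0.64 after centring, and it missed the threshold with a limma adjusted p of 0.0510. The 4 summits fell within 67 bp of each other.

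GENCODE has no Rab27a TSS near that element, whose summit lay 18928 bp from the first start of the gene. RefSeq does place a Rab27a TSS there, at position 73064148, which is 19164 bp from the nearest GENCODE start and inside the region, 366 bp past the summit. By RefSeq's annotation the intron 2 element is therefore a promoter region. The 250 bases before this TSS, chr9:73063898-73064147 on the plus strand of GRCm38.p6, are shown for that reason, with capitals on the letters CACGTG, 246 bases before the TSS.
Rab27a RefSeq start in intron 2: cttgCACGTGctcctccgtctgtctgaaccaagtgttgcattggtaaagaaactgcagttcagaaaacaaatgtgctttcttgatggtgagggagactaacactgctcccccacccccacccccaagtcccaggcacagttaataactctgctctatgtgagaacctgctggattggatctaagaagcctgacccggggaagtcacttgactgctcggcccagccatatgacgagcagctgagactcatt

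Around Rab27a, neighbouring promoters had the highest values in the window. Pigb, a mannosyltransferase of GPI anchor synthesis, had 1.48 and 2.74 in LP against 3.66 and 8.49 in HP at a promoter region shared with 2310009A05Rik. Its log2 difference was 1.47 (SE 0.54, limma adjusted p = 0.0720). Rsl24d1, a factor of ribosome assembly past the other end of the gene, had 2.35 and 2.74 in LP against 3.92 and 8.63 in HP, a difference of 1.20 (SE 0.54, limma adjusted p = 0.112). Neither passed the threshold, and both had HP above LP in both replicates.

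Myo5a, the motor, had a strong promoter with a different order of libraries. The region chr9:75070641-75072774 reached a scaled pileup of 8.89 and 5.08 in LP against 6.36 and 16.6 in HP. LP replicate 1 was above HP replicate 1, so the groups overlapped, and the replicates gave log2 ratios of -0.48 and 1.71. The fitted difference was 0.61 (SE 0.54, limma adjusted p = 0.326), or -0.40 after centring.

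Far from its promoter, Myo5a had an element in intron 4, chr9:75124051-75125577, with its summit 54142 bp from the TSS. Its scaled pileup was 0.698 and 0.716 in LP against 2.09 and 2.31 in HP, from 8, 11, 24 and 33 fragments. Among the 10 regions this was the one with the closest replicates, with log2 ratios of 1.58 and 1.69, against the medians of 0.57 and 1.30 over all regions. The difference of 1.64 (SE 0.54) missed the threshold with a limma adjusted p of 0.0519, and it was 0.63 after centring. The top summits of the libraries spanned 742 bp, so they need not mark a single site.

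The 200 bp around the highest of these summits, chr9:75125057-75125256 (plus strand, GRCm38.p6), are shown with capitals on ACAAAG, found at 2 places. RefSeq marks 68.5% of these bases as repeats, and short reads within a repeat can map to other copies. At least 50% repeat was found in 10.7% of the 2416 regions of this kind, those called in all 4 libraries and farther than 1 kb from any TSS. In the same regions 14.7% held ACAAAG.
Myo5a intron 4 summit: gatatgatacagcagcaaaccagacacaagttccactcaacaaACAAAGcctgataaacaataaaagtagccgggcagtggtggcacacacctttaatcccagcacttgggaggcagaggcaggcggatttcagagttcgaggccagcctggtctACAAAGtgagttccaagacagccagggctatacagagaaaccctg

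A region in intron 32 of Myo5a, chr9:75195543-75197766, was called in 3 libraries, with 0.716 in LP replicate 2 and 2.44 and 2.39 in HP. LP replicate 1 had no peak there, which shows only that the peak threshold was not reached.

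**Figure D2:**
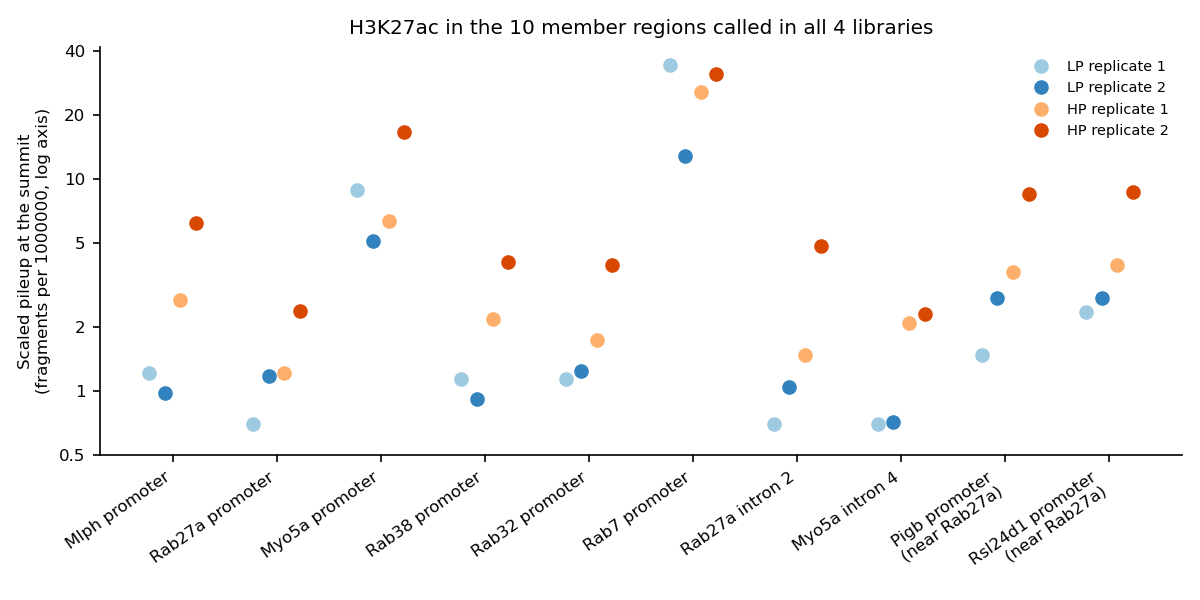
Scaled pileup at the summit (fragments per 1000000, log axis) in the 10 regions called in all 4 libraries, with 1 point for each library. The HP points lie above both LP points in 8 regions, and the Myo5a and Rab7 promoters are the 2 where the groups overlap.

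Rab38 and Rab32 gave similar promoter values. The Rab38 promoter region, chr7:88429615-88431212, held a scaled pileup of 1.13 and 0.912 in LP against 2.18 and 4.07 in HP. Both HP libraries were above both LP libraries, and the log2 difference was 1.55 (SE 0.54, limma adjusted p = 0.0614), or 0.54 after centring. The Rab32 promoter region, chr10:10557173-10558293, had 1.13 and 1.24 in LP against 1.74 and 3.93 in HP. The Rab32 log2 difference was 1.14 (SE 0.54, limma adjusted p = 0.121), or 0.13 after centring. For both genes the scaled pileup differed more between the HP replicates than between HP replicate 1 and either LP library.

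The genes differed in what surrounded these promoters. Rab38 had 30 regions in its window of 101.3 kb and Rab32 had 5 in 53.3 kb. Called in both HP libraries and neither LP library were 4 of the 30 Rab38 regions, 3 of the 30 Rab27a regions and 1 of the 27 Mlph regions, where 3.94% of all regions had this pattern. The 4 of Rab38 had their summits in introns 1 and 2. The highest, chr7:88431357-88432057, counts as a second promoter region, with its summit in intron 1 at 1354 bp from the TSS and 1.13 and 1.19 in HP. The others had 0.958 and 0.421, 0.697 and 0.982, and 0.697 and 0.491 in HP, from 6 to 14 fragments. Their 200 bp of sequence held none of the letters searched. Of these letters ACAAAG was the most frequent over all regions with this pattern, in 17.2%.

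Rab7, which is needed in every cell, had the highest promoter of the 6. Its region, chr6:88044138-88045749 (minus strand), reached a scaled pileup of 34.4 and 12.8 in LP against 25.8 and 31.2 in HP, from 395, 197, 296 and 445 fragments. LP replicate 1 was the highest library and LP replicate 2 the lowest, so the groups overlapped. The difference was 0.43 (SE 0.54, limma adjusted p = 0.470), or -0.58 after centring, with log2 ratios of -0.42 and 1.28 in the replicates. Its summits fell within 53 bp.

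By mean level over the libraries the promoters ran from Rab7 (26.1) through Myo5a (9.24), Mlph (2.77), Rab38 (2.07) and Rab32 (2.01) to Rab27a (1.37). Among the 8599 promoter regions of protein-coding genes called in all 4 libraries, Rab7 stood at the 99.9th percentile and Myo5a at the 84.8th. Mlph was at the 16.6th, Rab38 at the 7.59th, Rab32 at the 6.87th and Rab27a at the 1.50th. Neighbours in this order overlapped in their range over the libraries, and the lowest library of Rab7 and of Myo5a was above the highest of Rab38, Rab32 and Rab27a.

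Set side by side, the 2 non-promoter elements had a higher median ratio than the 6 promoters, in each replicate. The gap between the classes was smaller than that between the replicates, which was also seen over all regions (medians of 0.57 and 1.30). The 6 promoters had a median log2 ratio of 1.03, against 0.89 over all promoters of protein-coding genes, and the 2 non-promoter elements had 1.64, against 1.06 over all regions farther from a TSS. By replicate, the promoter median was 0.71 and 1.69 and the non-promoter median 1.33 and 1.95. After centring, the promoter median was 0.02, with Rab27a, Myo5a and Rab7 below 0, and both non-promoter elements stayed above 0. Over all promoters of protein-coding genes the centred median was -0.13, with 3165 of 8599 above 0. Over all regions farther from a TSS it was 0.05, with 1322 of 2420 above 0. The largest promoter ratio, 1.90 for Mlph, drew its HP replicate 2 value from a summit 2753 bp into the gene, in intron 1. The classes are thus not cleanly parted at Mlph. With 2 non-promoter elements, of which the Rab27a one is a promoter in RefSeq, no comparison of the classes was tested. Over the 10 regions the HP libraries were both above the LP libraries in 8, where this held for 74.8% of all regions, and the opposite order was seen in 0 of the 10 and 0.141% of all. For the 6 promoters the count was 4, against 73.8% of the promoters of protein-coding genes.

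**Figure D3:**
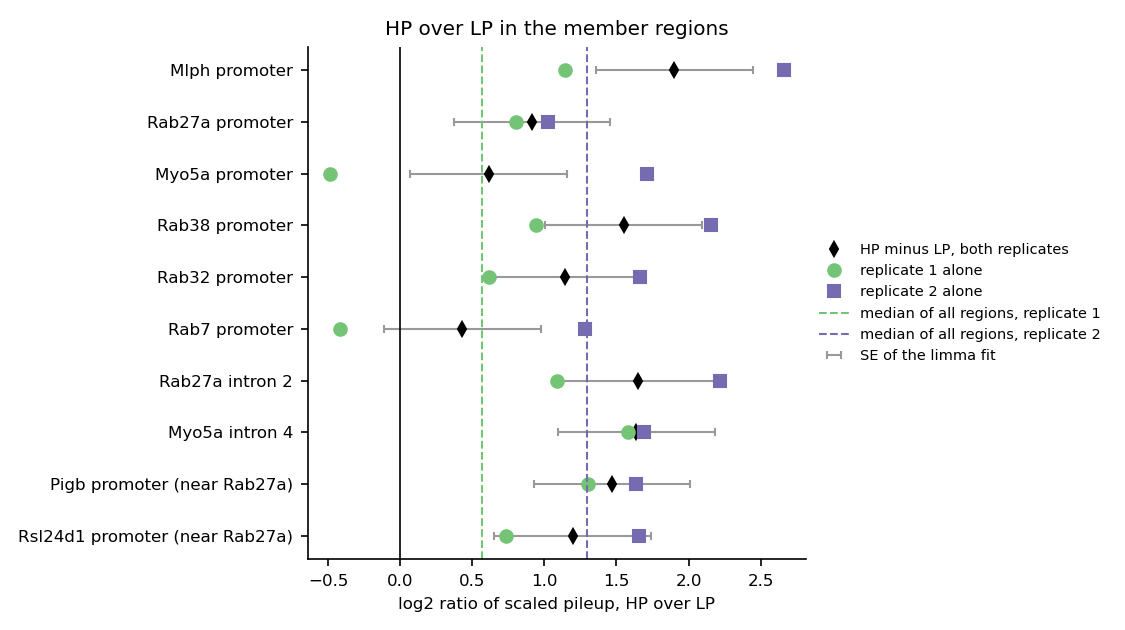
log2 ratio of scaled pileup, HP over LP (horizontal), for the 10 regions, with replicate 1 and replicate 2 as separate points, the fitted difference as a diamond with its SE as a bar, and dashed lines at the medians of all regions for each replicate. Replicate 2 gave the larger ratio in all 10 regions, and in replicate 1 the Myo5a and Rab7 promoters fell below 0.

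More elements were called in HP than in LP, and more in replicate 2 than in replicate 1. Peaks over the 6 genes numbered 29 and 55 in LP against 65 and 94 in HP, or 0.0501% and 0.0826% of all peaks in LP against 0.100% and 0.131% in HP. Their summed length was 9895 and 26162 bp in LP against 32232 and 53644 bp in HP, which is 0.0524% and 0.0864% of the length of all peaks in LP against 0.101% and 0.122% in HP. Both HP shares lay above both LP shares, and replicate 2 lay above replicate 1 in each population. Replicate 2 was also sequenced deeper, with 15353176 (LP) and 14254904 (HP) fragments against 11467942 and 11483830 in replicate 1. Its IgG control held 19358733 fragments against 8701778, and the part of depth in the counts was not tested. No test was made, since the exact permutation test cannot reach the threshold with 2 against 2. Most of the regions were non-promoter ones, with 14 and 35 called in LP against 39 and 75 in HP. The share of all such regions called in each library was not worked out. By pattern, 58.6% of the 128 non-promoter regions were called in 1 HP library only, against 40.7% of all regions farther from a TSS. Those called in 1 LP library only made 20.3% against 47.1%, and those called in all 4 libraries 1.56% against 1.57%.

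Most of these regions were seen once. Of the 153, 10 (6.54%) were called in all 4 libraries, against 6.6% of all regions, and 108 (70.6%, against 81.7%) were called in 1 library, 80 of them in an HP library and 28 in an LP library. Those 80 make 52.3% of the members, and 38.4% of all regions had that pattern, while the 28 make 18.3% against 43.3%. HP replicate 2 alone gave 53, or 34.6% against 21.3%. The pattern of both HP libraries and neither LP library was found in 8 regions, or 5.23% against 3.94%. The opposite pattern was found in 0 of the 153 and in 0.249% of all regions. LP replicate 2 and HP replicate 2 alone shared 14 regions, or 9.15% against 2.29%.

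The 8 regions called in both HP libraries and neither LP library belonged to Rab38 (4), Rab27a (3) and Mlph (1). The Mlph region, chr1:90936408-90936830, lay in intron 8 with 0.784 and 0.982 in HP. The highest near Rab27a, chr9:73114096-73114584, was at the Rsl24d1 promoter with 1.22 and 1.12, and RefSeq marks 100% of its 200 bp as repeat. Within Rab27a, introns 2 and 6 held the others, with 1.13 and 0.772 and with 0.697 and 0.631 in HP. The Mlph sequence is shown because it is the 1 of these 8 with an E-box, CATGTG, in capitals (chr1:90936649-90936848, plus strand, GRCm38.p6). Of all 7200 such regions on the numbered chromosomes and X and Y, 15.5% held these letters.
Mlph intron 8 summit: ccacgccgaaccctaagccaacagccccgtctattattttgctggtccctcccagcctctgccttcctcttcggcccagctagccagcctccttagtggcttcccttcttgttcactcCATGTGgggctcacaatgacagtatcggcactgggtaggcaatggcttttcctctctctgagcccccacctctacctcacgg

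Upstream of Mlph, at -5340 bp relative to the TSS, chr1:90908968-90910186 was called in 3 libraries with 1.48 in LP replicate 1 and 2.70 and 3.44 in HP. Past its other end lay 3 promoter regions of Rab17, a GTPase of recycling endosomes. The highest was called with 0.782 in LP replicate 2 and 1.74 and 2.31 in HP, another with 0.523 in LP replicate 1 and 1.57 in HP replicate 1, and the last with 0.716 in LP replicate 2 and 0.912 in HP replicate 2. None of these could be fitted, as LP had 1 value.

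**Figure D4:**
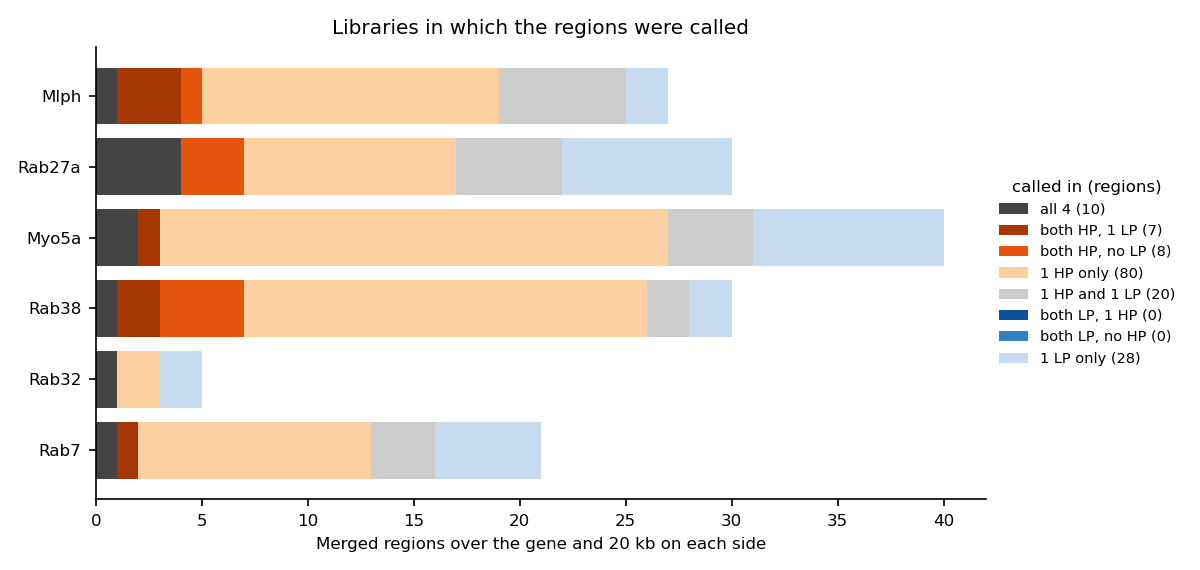
Regions over each gene and 20 kb on either side (horizontal, number of regions), coloured by the libraries in which they were called. The 153 regions include 8 called in both HP and neither LP and 0 in both LP and neither HP, and 80 called in 1 HP library only.

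A wider list of 55 transport genes held the partners of the 6, and 42 of them had a promoter region called in all 4 libraries. Of these, 2 were higher in HP and 0 lower, and 2.5% of all promoters of protein-coding genes were called higher. Both are partners of Rab7. Def8, which acts with Rab7 in the positioning of lysosomes, had 0.523 and 0.912 in LP against 2.00 and 3.86 in HP. Its value in LP replicate 1 lay near the lowest scaled pileup called in that library, 0.436. The Def8 region rose by 2.01 (SE 0.54, limma adjusted p = 0.0358, or 0.0492 with the replicate block). Vps41, a subunit of the HOPS tether that fuses late endosomes with lysosomes, had 0.785 and 2.61 in LP against 2.79 and 8.14 in HP. It rose by 1.74 (SE 0.54, limma adjusted p = 0.0474), and with the block the limma adjusted p was 0.0607. After centring the differences were 1.00 for Def8 and 0.72 for Vps41, and neither was called. The count was 0 also with quantile normalization, fragment length, mean summits, or without LP replicate 1, LP replicate 2 or HP replicate 2.

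The list as a whole followed the other promoters, with a median log2 ratio of 0.87 against 0.89, and 17 of 42 were above the median of all regions. Ankrd27, the effector that binds Rab32 and Rab38, came next with 1.58 (SE 0.54, limma adjusted p = 0.0583), at a region it shares with Rgs9bp. At the low end, Spire2, an actin nucleator on melanosomes, was the 1 gene below 0, with a difference of -0.30 (limma adjusted p = 0.607). Rabggtb, a subunit of the enzyme that prenylates Rabs, had 0.16 and Rab11b 0.22, and for all 3 the groups overlapped.

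By role, the 4 measured genes of the Rab27 cycle and its effectors (Madd, Tbc1d10a, Sytl2 and Mreg) had a median of 0.55, and 0 of 4 were called. The 8 actin and myosin genes had 0.89 and the 6 microtubule motor genes 0.91, again with 0 called. The 3 partners of Rab32 and Rab38 had 1.05, the 2 prenylation genes 0.69 and the 11 other endosomal Rabs 0.75, and none of these was called. Among the 8 Rab7 partners the median was 0.89 with the 2 called. The 13 genes without such a region included Rab27b and 4 synaptotagmin-like effectors of Rab27, Sytl1, Sytl3, Sytl4 and Sytl5.

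**Figure D5:**
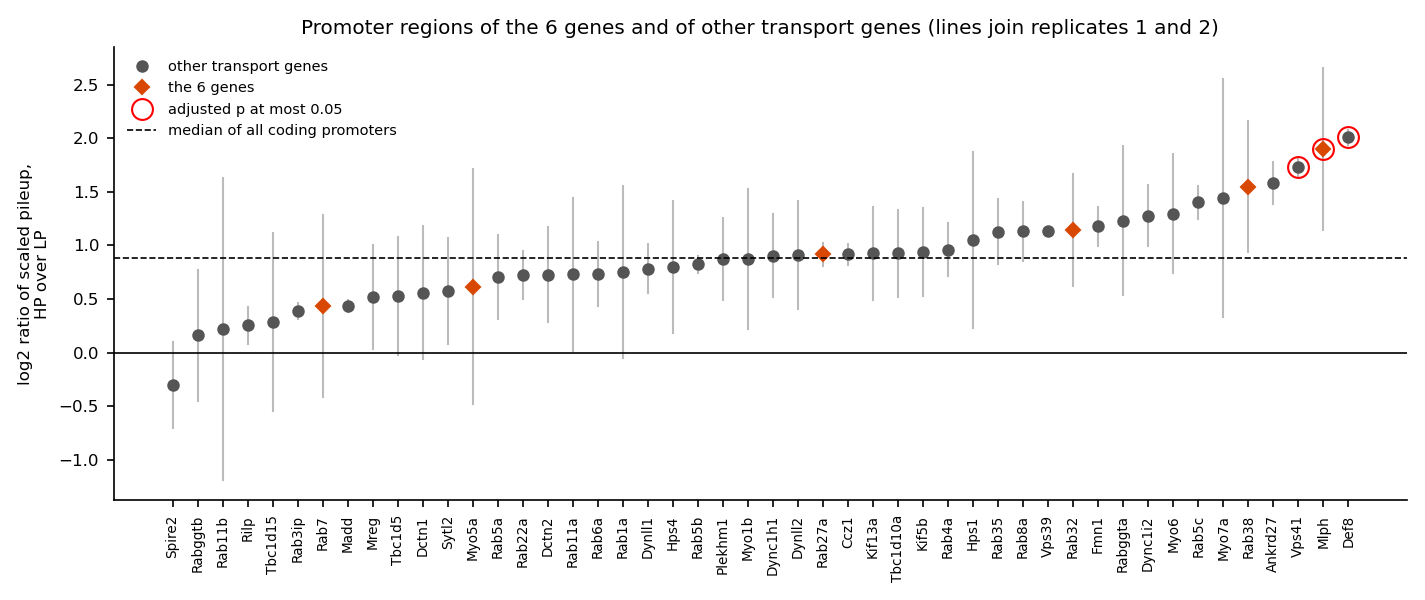
log2 ratio of scaled pileup at the promoter, HP over LP (vertical), for the 6 genes (diamonds) and 42 other transport genes (circles) in rising order, with grey lines between replicate 1 and replicate 2 and a dashed line at the median of all coding promoters, 0.89. Def8, Mlph and Vps41, ringed, passed the adjusted threshold.

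By distance over the 4 log2 values, the promoter most like that of Mlph was Acacb (distance 0.15), and for Myo5a it was Cct2 (0.15). For Rab38 it was Ephx1 (0.15), for Rab32 Dclre1c (0.08), for Rab7 Rad21 (0.24) and for Rab27a Rab39b (0.28). The comparison ran over 8593 promoters and 4 libraries. Within a distance of 0.5 there were 10 promoters for Rab7 and 155 for Myo5a, so no gene stood alone as a match.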

How the data were processed

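H3K27ac ChIP-seq peaks of 2 LP and 2 HP libraries were analysed, grouped by the labels. IgG libraries of unsorted cells, 1 for each replicate number, were used only by the authors as controls. Fixation lasted 10 min, in 1% formaldehyde per the labels. The authors processed reads with bcl2fastq 2.20 and Trimmomatic 0.33, aligned them to mm10 with Bowtie2 2.5.1 and ran MACS 3.0.0b1 on each library for narrow peaks, with duplicates kept and a q-value cutoff of 0.05. The deposited pileup is a signal in fragments over the summit, not scaled for library size. The deposited ratio is the fold enrichment over local background, and the −log10 q-value deposited by the authors was used only as a filter.

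Here, pileups were divided by the library's fragments and multiplied by 1000000. Peaks sharing at least 1 bp were joined, and a region took its highest summit per library. limma 3.58.1 in R 4.3.3 compared log2 values of HP and LP over regions called in all 4 libraries, with Benjamini-Hochberg adjustment over all of them, a threshold of 0.05 and 2 residual degrees of freedom. limma pooled the variance fully, so each region has the same SE. The p-values thus rest on the spread pooled over all fitted regions, not on a region's own 2 residual degrees of freedom. Nothing says that replicates came from separate cultures, so p-values measure only the spread between these libraries, which may be technical. The labels give equal DNA within each replicate set, so the numbers pair the libraries, and the replicate differences of LP and HP correlated at 0.0153 over regions. The fit had no block, and the block was an alternative.

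Genes and TSSs came from GENCODE vM21 and sequence from RefSeq GRCm38.p6, read with pysam 0.24.0. Sequences within annotated untranslated exons are not printed. The members, the gene lists and the tests were chosen with earlier results of these data known. Named regions are, for each member, the promoter of highest mean, every called region, and the highest and the most different non-promoter region called in all 4 libraries. Also named is the highest in HP of those called in both HP libraries and neither LP library. Transport genes were named if called or among the 3 highest or 3 lowest. Others in the text were chosen after their values were seen. Alternatives were the block, centring, quantile normalization, scaling by fragment length, mean summits, a q-value of at most 0.01, joining at 50% overlap, other windows and leaving out each library. Joining and the fit were tested on simulated data. Python 3.11.15, pandas 2.3.3, numpy 2.4.6 and matplotlib 3.10.9 were used.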

Additional observations from a re-analysis of the deposited data

How the results depend on the processing

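Depth limits the weaker member elements, and those called in all 4 libraries rest on 8 to 19 fragments in LP. The called regions over the series, the members and the other transport genes were 485, 1 and 2. They were 88, 0 and 1 with the replicate block, 9, 0 and 0 after scaling by fragments times mean fragment length, and 0, 0 and 0 with mean summits, median centring or quantile normalization. For the Mlph promoter the log2 ratio and limma adjusted p were 1.90 and 0.0539 with the block, 1.92 and 0.0593 with fragment length, 2.11 and 0.114 with mean summits, 0.89 after centring and 0.86 after quantile normalization. Among the members the block changed no other call. A fit without 1 library assumes that the lone library of a population varies like the pair in the other.

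After centring the ratio reversed for the promoters of Rab27a (-0.10), Myo5a (-0.40) and Rab7 (-0.58), and likewise after quantile normalization (-0.10, -0.12 and -0.14). The median ratio moved to 0.018 and -0.021 for the member promoters, to 0.63 and 0.65 for the non-promoter regions and to -0.14 and 0.0050 for the other transport genes.

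Leaving out 1 library gave 0 to 6930 called regions over the series, 0 to 9 member regions and 0 to 19 other transport promoters, with all of the high counts without HP replicate 1 and 0 without any other. Promoter ratios ranged from 1.31 to 2.5 for Mlph, 0.43 to 1.40 for Rab27a, -0.081 to 1.31 for Myo5a, 1.10 to 2.00 for Rab38, 0.56 to 1.73 for Rab32 and -0.28 to 1.14 for Rab7, and Myo5a turned negative without HP replicate 2 and Rab7 without LP replicate 2. Without HP replicate 1 the promoters of Rab27a, Myo5a, Rab38 and Rab32 passed the threshold. The non-promoter median ranged from 1.18 to 2.11, the promoter median from 0.49 to 1.56 and the other transport median from 0.57 to 1.14.

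A window of 50 kb gave 2 called member regions. A wider window takes in more regions, and the number fitted there was not recorded. Since 4.01% of all fitted regions were called higher in HP, this count shows nothing particular to these genes. Replicate by replicate, 44 to 63 of the 153 member regions were called in HP and not in LP. From 9 to 23 went the other way, with means of 53.5 and 16 as a replicate block. The share of all regions with these patterns was not worked out, so the counts show nothing particular to these genes. A q-value of at most 0.01 and joining at 50% overlap changed no member promoter's call or direction. A window of 3 kb left the count of called member regions at 1 and both medians as they were, and a promoter window of 3 kb, run for the medians alone, gave 1.03 and 1.64. The causes were not tested.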
